A study of Mus musculus with 6 samples.

Results

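Serpins are a superfamily of proteins of one fold, most of which inactivate serine proteases by a suicide mechanism. The protease cuts the exposed reactive centre loop of the serpin, the loop slides into a beta sheet, and the enzyme stays covalently trapped. Some members inhibit cysteine proteases of the cathepsin type, and a few carry hormones, act as chaperones or have no known protease target. In the mammary gland they bear on plasmin-driven matrix turnover, complement, coagulation and leukocyte proteases. The members described here were every gene of the deposited table whose symbol is Serpin, a clade letter from a to i and a number. There were 63 of them among 24421 genes, and the rule reads the symbol and no measured value.

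RNA-seq had been run on 3 mammary glands and 3 mammary tumours of female FVB/NJ mice aged 5 months. The gland donors are labelled FVB/NJ with the transgene Tg(LINK-A) and the tumour donors FVB/NJ with MMTV-Tg(LINK-A), and the tumour donors bore tumours at collection. LINK-A is a long non-coding RNA, and the MMTV promoter drives expression mainly in mammary epithelium. Both groups thus carry a LINK-A transgene by their labels, and the difference in donor genotype cannot be told apart from that in tissue. The labels number the replicates but do not say whether each was a different mouse, so the p-values reflect the spread of these samples alone, and that spread may be technical.

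The values are FPKM, fragment counts divided by the length of the transcript and by the library's total, so levels of different genes can be compared. They summed to between 486080 and 582996 per library, read totals were not given, and the absolute depth was unknown. Defining epithelial markers were present in every library: the luminal epithelium list, with keratin 8 (Krt8) among it, summed to between 938 and 998 FPKM across glands and between 2642 and 2864 in tumours. In bulk tissue, fewer cells of a type and less RNA per cell cannot be told apart. Libraries also differed within groups. Skeletal muscle markers summed to 26.4, 12936 and 1164 FPKM in glands 1 to 3 against 8.93 to 30.5 across the tumours, B cell and plasma cell markers to 238, 111 and 241 FPKM in the glands, and tumour 3 held the lowest tumour sums of the fibroblast, adipocyte, endothelial, T and NK cell, B cell, macrophage and neutrophil lists.

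Of the 63 serpin genes, 23 were listed at 0 in all 6 libraries, 18 were above 0 somewhere but averaged under 1 FPKM, and 22 averaged 1 FPKM or more across the 6 libraries and entered the fit. The test was that of limma on log2(FPKM + 1), fitted over 13364 genes, with Benjamini-Hochberg adjustment at 0.05. Of the 22 serpin genes, 13 were lower in the tumours, 4 were higher and 5 did not pass. Over all tested genes 45.1% passed, with 23.1% lower and 21.9% higher. The median log2 fold change of the 22 was -1.41, and -1.37 without the gene listed at 0 in every tumour, against 0.008 over all tested genes. The 3 values of one group lay wholly below those of the other for 14 serpin genes in the tumours and wholly above for 4, where 29% and 29.3% of all tested genes did so (58.2% in either direction). Because a gene could pass the filter through one group alone, these counts describe the measured members and not the family.

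**Figure D1:**
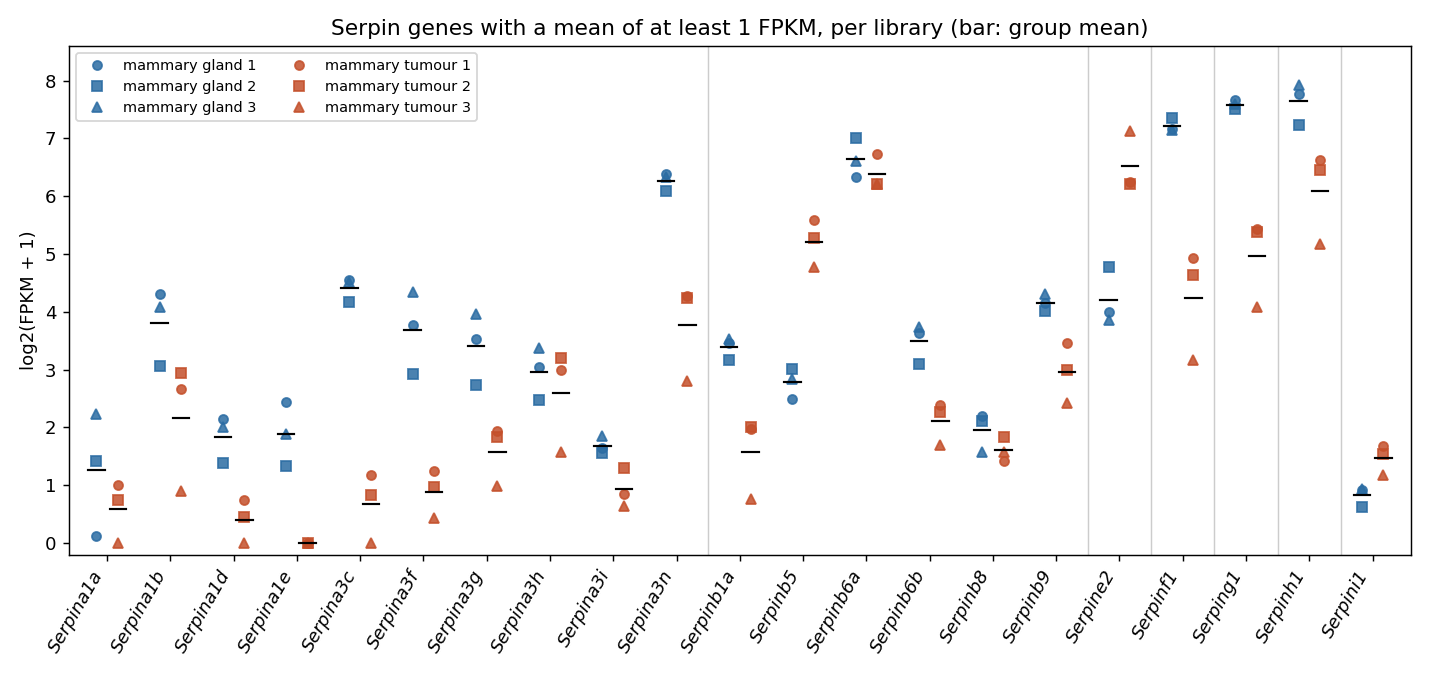
Level of 21 serpin genes of the fit, as log2(FPKM + 1) on the vertical axis, with 1 point per library (blue, glands; red, tumours) and a bar at each group mean. Serping1, Serpinf1, Serpinh1 and Serpina3n stand high in the glands and lower in all 3 tumours, while Serpinb5 and Serpine2 stand higher in all 3 tumours.

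Summed over all members, serpin transcripts stood at 878, 813 and 919 FPKM across glands 1 to 3 and 477, 414 and 335 FPKM across tumours 1 to 3. All 3 tumours thus lay below all 3 glands, and the tumour mean was 0.47 times the gland mean. The make-up of that sum differed as well. Serpine2, protease nexin 1, made up 2.14% ± 0.968 of it in the glands and 24.9% ± 14.3 in the tumours (SD, n = 3 each), with 41.4% in tumour 3. Clade A, the antitrypsin and antichymotrypsin family, made up 17.6% ± 2.96 and 6.96% ± 3.36, and Serping1 alone 22.0% ± 1.11 and 7.79% ± 2.68. The 5 members of the highest mean (Serpinh1, Serping1, Serpinb6a, Serpinf1 and Serpine2) together held 76.2% ± 2.85 in the glands and 75.4% ± 4.82 across the tumours, shares that overlapped between the groups.

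Serpine2 and Serpini1, which act on plasminogen activators, rose. Serpine2 encodes protease nexin 1, an inhibitor of thrombin, urokinase and plasmin that is bound to cell surface heparan sulphate. It was the most abundant serpin transcript in tumour 3. It stood at 14.9, 26.4 and 13.6 FPKM across the glands and 74.8, 73.2 and 139 FPKM in the tumours. Gland 2 was the highest gland and tumour 3 the highest tumour, and the groups did not overlap. The log2 fold change was 2.32 (SE 0.33, adjusted p = 0.00156 in limma). Serpini1, neuroserpin, an inhibitor of the tissue plasminogen activator known from the nervous system, was near the limit of the filter, at 0.880, 0.539 and 0.918 FPKM across the glands and 2.21, 1.90 and 1.27 FPKM in the tumours. Its log2 fold change of 0.64 (SE 0.21) passed at an adjusted p of 0.0427 in limma. The Serpini1 call was kept without tumour 3 (adjusted p = 0.02 in limma) and lost without any other library: its adjusted p in limma was 0.0879 without gland 1, 0.0967 without gland 2, 0.092 without gland 3, 0.115 without tumour 1 and 0.118 without tumour 2. The log2 fold change of Serpini1 had an adjusted p of 0.0501 in limma with a common sum per library, and its change was under 2-fold on this scale. Serpine3 reached 0.0992 FPKM in gland 3 and was listed at 0 elsewhere.

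Plat and Plau encode the tissue and urokinase plasminogen activators, the targets of these inhibitors. Plat stood at 18.1, 22.4 and 17.6 FPKM across the glands and 9.32, 8.54 and 4.48 across the tumours (log2 fold change -1.32, adjusted p = 0.00567 in limma). Plau stood at 26.2, 24.5 and 25.7 FPKM and 10.2, 9.45 and 7.14 FPKM (-1.43, adjusted p = 3.8e-04 in limma). Both activators fell, with no overlap between the groups. The ratio of Serpine2 FPKM to the summed FPKM of Plat and Plau was 0.336, 0.564 and 0.313 in glands 1 to 3, against 3.83, 4.07 and 11.9 in tumours 1 to 3. Serpine2 was thus below the sum of both activators in each gland and above it in each tumour. All such pairs of inhibitor and target were chosen from textbook knowledge with the values known.

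Other genes of the system went in both directions. In the plasminogen activation list 2 of 9 tested genes were higher, 4 lower and 3 did not pass. Vtn, vitronectin, an adhesive protein of plasma and matrix, fell from 12.3, 9.38 and 12.4 FPKM to 1.13, 1.28 and 0.568 FPKM. Lrp1, the endocytic receptor that clears serpin and protease complexes, fell from a mean of 25.5 to 7.01 FPKM (log2 fold change -1.75, SE 0.21). Plaur, the urokinase receptor, stood at 4.82 ± 0.754 FPKM across the glands and 6.05 ± 0.704 across the tumours (mean ± SD, n = 3 each) and did not pass (adjusted p = 0.176 in limma). Plaur passed under quantile normalization (adjusted p = 0.0214 in limma). Plg, plasminogen itself, a liver product, was listed at 0 in 5 libraries and at 0.0590 FPKM in gland 1.

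Maspin, the product of Serpinb5, showed the highest ratio of tumour to gland means, 6.22, among the 22 serpins of the fit. It is an epithelial serpin that does not inhibit proteases by the serpin mechanism and is known in breast from myoepithelial cells. Serpinb5 stood at 4.61, 7.05 and 6.17 FPKM across the glands and 46.8, 37.8 and 26.3 FPKM across the tumours, which is a log2 difference of 2.43 (SE 0.23, adjusted p = 3.3e-04 in limma). Even the lowest tumour lay above every gland, and the call remained in each of the 14 alternatives. Of 8 myoepithelial and basal markers, 4 fell and 4 did not pass, and none rose. The smooth muscle actin gene Acta2, which marks the contractile apparatus of those cells, stood at 339, 312 and 349 FPKM across the glands and 48.4, 41.8 and 12.4 FPKM in the tumours. Keratin 14 (Krt14), a filament protein of basal cells, stood at 87.3, 94.3 and 85.3 FPKM across the glands and 137, 133 and 39.7 FPKM in the tumours. These genes of the list were chosen after their values were seen. Serpinb5, Acta2 and Krt14 had their lowest tumour value in tumour 3, and the part of cell make-up in the Serpinb5 result was not tested.

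**Figure D2:**
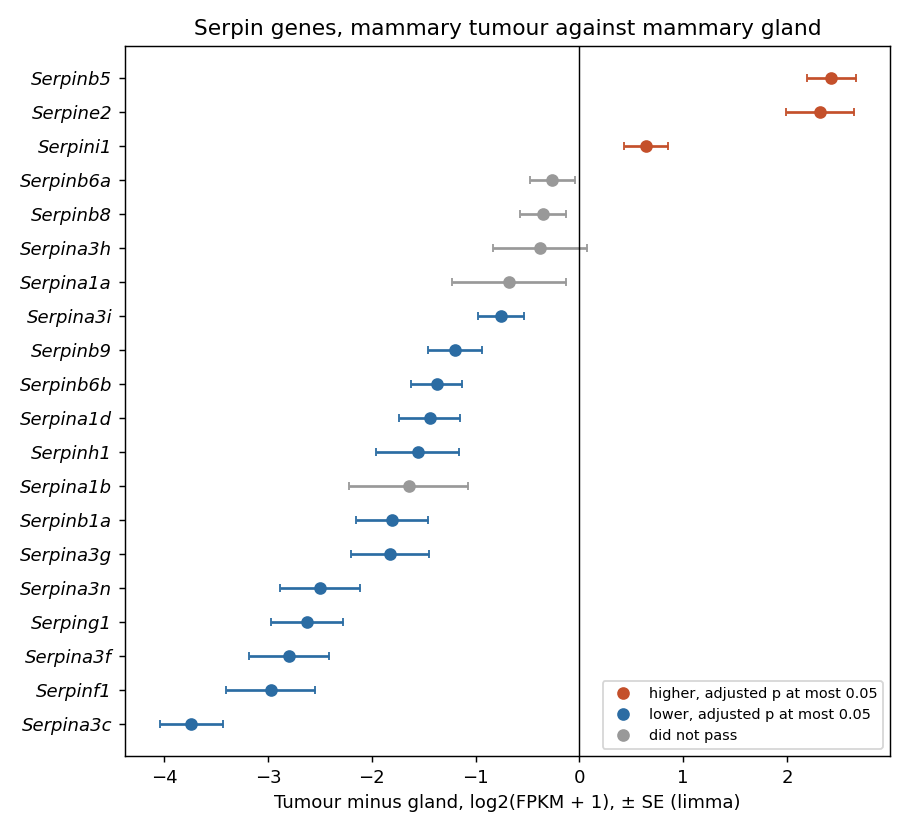
Difference of tumour and gland means in log2(FPKM + 1) on the horizontal axis, with its SE, for 20 serpin genes of the fit that were above 0 in both groups. Serpinb5, Serpine2 and Serpini1 lie right of 0 (red), grey points did not pass, and the largest drop is that of Serpina3c at -3.74.

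Maspin and its neighbours on chromosome 1 did not share one behaviour. Of the 14 serpin genes on that chromosome 3 entered the fit. Serpinb5 (106861173 to 106883348) rose. Serpinb8 (107590006 to 107610484), an inhibitor of the proprotein convertase furin, stood at 3.61, 3.30 and 1.99 FPKM across the glands and 1.69, 2.56 and 1.97 FPKM in the tumours and did not pass (log2 fold change -0.35, adjusted p = 0.229 in limma). The sign of Serpinb8 turned under quantile normalization, at 0.12. Serpine2, the third, lies far from them on the same chromosome, from 79794197. The squamous epithelial genes Serpinb3a to Serpinb3d, Serpinb7, Serpinb12 and Serpinb13, in the same clade, were listed at 0 in all 6 libraries. Serpinb2, an inhibitor of urokinase, was listed at 0 in the glands and stood at 0.235, 0.224 and 0.391 FPKM in the tumours, under the filter, and exons of it overlap Serpinb10 on the same strand.

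The 250 bases before the start in RefSeq (GRCm38.p6) are shown for Serpinb5 and Serpine2, 5′ to 3′ on the gene's strand. Both genes were higher in every tumour than in every gland. Capitals mark any of 6 motifs searched on both strands. The core promoter motif was TATAAA, known as the TATA box. The GC box, to which factors of the Sp family bind, was searched as GGGCGG on either strand. Factors of the AP-1 family were represented by the motif TGANTCA, those of the STAT family by TTCNNNGAA and those of the C/EBP family by TTGCNNAA, and interferon regulatory factors by the doubled core of the interferon-stimulated response element. The windows are chr1:106860925-106861174 (plus strand) for Serpinb5 and chr1:79858666-79858915 (minus strand) for Serpine2. The window of Serpini1 had no match and is not shown.
Serpinb5: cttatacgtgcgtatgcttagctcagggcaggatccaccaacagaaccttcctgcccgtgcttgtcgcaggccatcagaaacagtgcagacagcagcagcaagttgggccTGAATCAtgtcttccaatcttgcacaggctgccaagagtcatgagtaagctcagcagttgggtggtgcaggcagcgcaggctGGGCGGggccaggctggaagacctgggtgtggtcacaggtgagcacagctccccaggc
Serpine2: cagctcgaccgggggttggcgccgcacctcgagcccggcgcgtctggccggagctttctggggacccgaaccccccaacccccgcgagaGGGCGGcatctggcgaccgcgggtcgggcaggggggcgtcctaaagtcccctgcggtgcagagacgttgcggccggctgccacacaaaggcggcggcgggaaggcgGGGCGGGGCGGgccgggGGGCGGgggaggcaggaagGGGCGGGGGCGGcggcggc
In Serpinb5 the capitals are a TGANTCA match beginning 140 bases before the start and a GGGCGG match at 58 bases. Serpine2 held 6 GGGCGG matches, and 1 pair of them overlaps by a base. The Serpine2 window precedes the start in RefSeq, which lies inside the gene's GENCODE span. Among 32851 such windows of all genes, 6.75% held TGANTCA and 32.74% held GGGCGG. A match describes letters only, and no factor was measured here.

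Serping1, Serpinf1 and Serpinh1, the tested genes of clades F, G and H, fell. Serping1 encodes C1 inhibitor, which blocks the complement proteases C1r and C1s and also kallikrein. It stood at 202, 181 and 191 FPKM across glands 1 to 3 and 42.1, 40.6 and 15.9 FPKM across tumours 1 to 3. The glands lay within a narrow range and far above every tumour (log2 fold change -2.62, SE 0.35, adjusted p = 0.00121 in limma). The genes of its targets fell as well. C1s1 stood at 83.9, 73.3 and 81.5 FPKM across the glands and 9.36, 7.66 and 1.46 FPKM in the tumours (-3.73, or -3.09 without tumour 3). C1ra fell from 63.4 ± 2.09 to 5.27 ± 2.60 FPKM (mean ± SD, n = 3 each, log2 fold change -3.47). The ratio of Serping1 to the sum of C1ra and C1s1 was 1.39, 1.33 and 1.30 in the glands and 2.59, 2.84 and 4.27 across the tumours. Of 6 tested complement C1 and lectin pathway proteases 4 fell, none rose and 2 did not pass.

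Serpinf1, which encodes PEDF, a secreted serpin known for blocking vessel growth and lacking protease inhibition, stood at 142, 162 and 141 FPKM across the glands and 29.7, 23.9 and 7.94 FPKM in the tumours (log2 fold change -2.97, SE 0.43, adjusted p = 0.00173 in limma). Every tumour lay below every gland, and tumour 3 was the lowest. The other gene of clade F, Serpinf2, alpha2-antiplasmin, a liver product, stayed at or under 0.0768 FPKM in every library. Serpinh1 encodes Hsp47, a chaperone of the endoplasmic reticulum that binds procollagen and does not inhibit proteases. It stood at 218, 149 and 241 FPKM across the glands and 98.2, 86.4 and 34.9 FPKM across the tumours, which is a log2 difference of -1.56 (SE 0.40, adjusted p = 0.0175 in limma). The Serpinh1 call was lost without gland 1 (adjusted p = 0.0527 in limma) or gland 3 (adjusted p = 0.0641 in limma).

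Collagen genes, whose products are the clients of Hsp47, fell too, with log2 fold changes of -1.72 for Col1a1, -1.93 for Col1a2 and -2.94 for Col3a1 (-2.30 without tumour 3). The basement membrane collagens Col4a1 and Col4a2 fell by 2.01 and 2.02 on the log2 scale. Summed Col1a1, Col1a2 and Col3a1 stood at 1148, 1107 and 1072 FPKM across the glands and 271, 357 and 110 FPKM in the tumours. Serpinh1 per collagen FPKM was 0.190, 0.135 and 0.225 in the glands and 0.362, 0.242 and 0.318 across the tumours. The 3 tumour ratios thus lay above the 3 gland ratios, the closest pair being gland 3 and tumour 2. All 8 fibroblast markers fell, and their sum, which includes 2 of those collagen genes, went from between 1781 and 1945 FPKM in the glands to 285, 343 and 94.1 FPKM across tumours 1 to 3. All 8 endothelial markers fell too, with sums of 255 to 298 FPKM across the glands and 27.0 to 57.3 FPKM in the tumours, and all 8 adipocyte markers, with sums of 7678 to 9826 against 53.4 to 298 FPKM. The part of these cell types in the drops of Serping1, Serpinf1 and Serpinh1 was not tested.

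**Figure D3:**
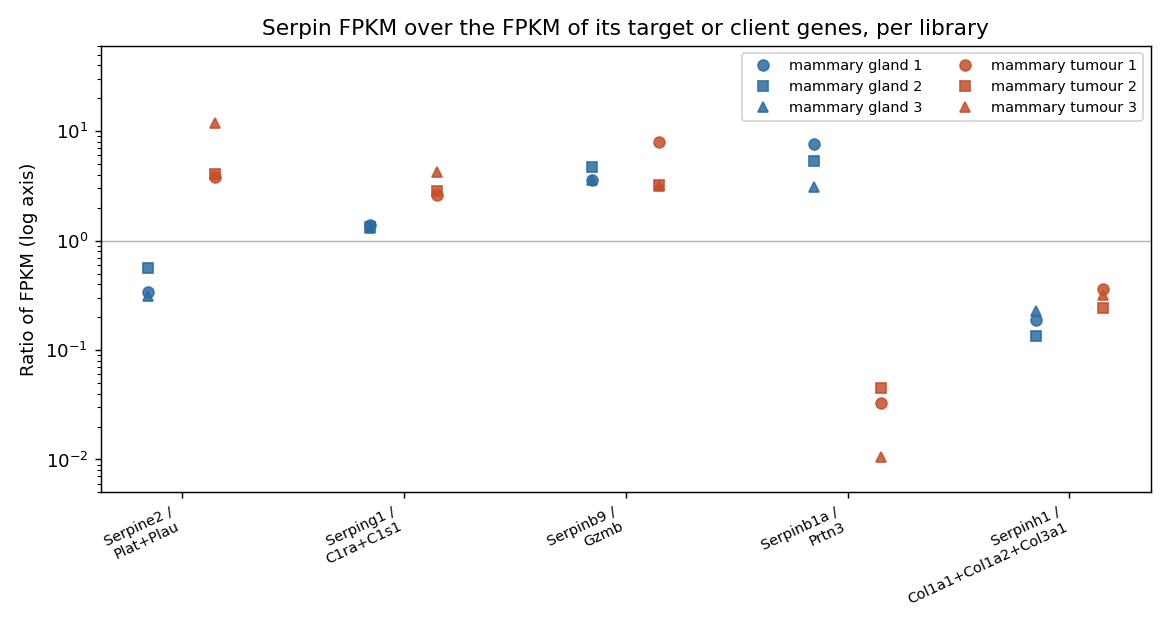
Ratio of the FPKM of a serpin to the FPKM of genes for its target proteases, or of collagen clients for Serpinh1, on a log axis, with 1 point per library (blue, glands; red, tumours). The tumour ratios of Serpine2 to Plat plus Plau lie above those of the glands, at 3.83 to 11.9, and the ratio of Serpinb1a to Prtn3 lies below, at 0.0105 to 0.0447 against 3.09 to 7.61.

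Antichymotrypsin-like genes of the Serpina3 cluster on chromosome 12 fell, with exceptions. In mice a single ancestral gene has expanded into a tandem family there, and Serpina3n is its best known member, an acute phase inhibitor of cathepsin G and related proteases. Serpina3n (104406729 to 104414329) stood at 82.1, 67.2 and 80.04 FPKM across the glands and 18.2, 17.9 and 6.0 FPKM in the tumours (log2 fold change -2.50, SE 0.38, adjusted p = 0.00221 in limma). Serpina3c (104146382 to 104153870, on the other strand) stood at 22.4, 17.1 and 21.9 FPKM across the glands and 1.27, 0.789 and 0 FPKM in the tumours (-3.74, SE 0.30, adjusted p = 1.7e-04 in limma). Both genes were separated between the groups, with tumour 3 lowest in each.

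Serpina3f and Serpina3g are close neighbours, the latter also known as Spi2A, an intracellular inhibitor of cathepsins found in leukocytes. Serpina3f stood at 12.7, 6.55 and 19.2 FPKM across the glands and 1.36, 0.953 and 0.349 FPKM in the tumours (-2.80, adjusted p = 0.00136 in limma). Serpina3g stood at 10.5, 5.64 and 14.6 FPKM across the glands and 2.83, 2.55 and 0.972 FPKM in the tumours (-1.83, adjusted p = 0.00774 in limma). Gland 2 was the lowest gland for both, by more than it was for Serpina3n. T and NK cell markers summed to 127, 40.3 and 123 FPKM in glands 1 to 3 and to 22.4, 19.3 and 3.25 FPKM across tumours 1 to 3, so gland 2 and tumour 3 were lowest there as well. All 6 tested markers of that list fell, and their part in the drops of Serpina3f and Serpina3g was not tested. The order was not particular to that list or to these genes. Gland 2 and tumour 3 also held the lowest sums of the endothelial, adipocyte, B cell, macrophage and neutrophil lists, and the lowest values of most fallen serpin genes.

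Serpina3i passed narrowly, at 2.11, 1.95 and 2.61 FPKM across the glands and 0.799, 1.47 and 0.549 FPKM in the tumours (-0.75, adjusted p = 0.031 in limma). Its adjusted p in limma was 0.0786 without gland 1, 0.118 without gland 3, 0.0734 without tumour 1 and 0.0584 without tumour 3. Under quantile normalization its log2 fold change was -0.15 (adjusted p = 0.496 in limma). Serpina3h, annotated as a transcribed pseudogene, overlapped between the groups, at 7.28, 4.55 and 9.33 FPKM against 6.95, 8.21 and 1.96 FPKM, and did not pass (-0.38, adjusted p = 0.53 in limma). Its sign turned without tumour 3, to 0.13. Serpina3m was at 2.87 and 2.97 FPKM in glands 1 and 3 and listed at 0 in gland 2 and all tumours, under the filter, and its exons overlap those of Serpina3k. Serpina3a, Serpina3b and Serpina3j were listed at 0 in all 6 libraries. Reads can be shared between these copies: 24.37% of the 50-base stretches of the Serpina3h transcript were found in transcripts of other genes, 16.02% for Serpina3g, 15.43% for Serpina3i, 10.73% for Serpina3f, 6.9% for Serpina3n and 4.25% for Serpina3c. The levels of Serpina3h, Serpina3g and Serpina3i are uncertain to that extent.

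The promoters of the 5 Serpina3 genes that fell are shown because these copies fell together and share ancestry. Each window is the 250 bases before that gene's start (RefSeq, GRCm38.p6, 5′ to 3′ on the gene's strand). The windows as printed are not aligned to each other. Capitals mark the same 6 motifs as above. The windows are chr12:104153873-104154122 (minus strand) for Serpina3c, chr12:104406458-104406707 for Serpina3n, chr12:104214294-104214543 for Serpina3f, chr12:104235897-104236146 for Serpina3g and chr12:104262872-104263121 for Serpina3i, the last 4 on the plus strand.
Serpina3c: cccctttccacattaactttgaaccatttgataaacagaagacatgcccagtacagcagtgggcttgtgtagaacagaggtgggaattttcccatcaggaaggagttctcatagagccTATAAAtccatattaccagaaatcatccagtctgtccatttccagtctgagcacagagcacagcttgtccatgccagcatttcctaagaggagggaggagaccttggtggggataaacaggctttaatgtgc
Serpina3n: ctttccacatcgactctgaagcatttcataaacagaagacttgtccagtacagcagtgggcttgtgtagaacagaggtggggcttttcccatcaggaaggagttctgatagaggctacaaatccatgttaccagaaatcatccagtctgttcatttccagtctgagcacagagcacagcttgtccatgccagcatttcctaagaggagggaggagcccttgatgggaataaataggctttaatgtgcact
Serpina3f: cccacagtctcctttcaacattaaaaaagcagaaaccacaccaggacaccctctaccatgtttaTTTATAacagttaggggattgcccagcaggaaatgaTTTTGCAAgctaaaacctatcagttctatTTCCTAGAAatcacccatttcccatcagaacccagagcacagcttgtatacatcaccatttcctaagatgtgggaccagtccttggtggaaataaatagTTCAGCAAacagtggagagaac
Serpina3g: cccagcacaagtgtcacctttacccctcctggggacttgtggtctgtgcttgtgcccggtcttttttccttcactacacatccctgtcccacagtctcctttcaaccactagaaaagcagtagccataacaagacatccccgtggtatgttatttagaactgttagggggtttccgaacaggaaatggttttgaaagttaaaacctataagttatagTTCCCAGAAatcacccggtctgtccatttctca
Serpina3i: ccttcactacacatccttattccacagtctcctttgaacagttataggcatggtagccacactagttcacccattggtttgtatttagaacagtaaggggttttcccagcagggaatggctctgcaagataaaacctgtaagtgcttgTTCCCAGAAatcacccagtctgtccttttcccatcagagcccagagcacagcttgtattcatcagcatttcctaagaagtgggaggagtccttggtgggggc
The windows of Serpina3c and Serpina3n were 90.5% identical although the genes lie on opposite strands. Pairs with Serpina3g were 35.0% to 44.9% identical, and the remaining pairs 60.6% to 64.4%. A TTCNNNGAA match stood 121, 33 and 102 bases before the start of Serpina3f, Serpina3g and Serpina3i, and none was found in the windows of Serpina3c and Serpina3n. Of 11 fallen serpin genes with a window, 3 held that motif, all from this cluster, against 7.02% of all 32851 windows. The longest run of letters common to the 5 windows was agaaatca, found in 1.321% of all windows. In Serpina3f, Serpina3g and Serpina3i it begins inside the TTCNNNGAA match. That run begins 28 bases before the start of Serpina3g and 97 to 118 bases before the other starts, so the Serpina3g window is shifted against the others. The identities and motif position of Serpina3g thus depend on where its start was annotated. The genes share ancestry, so a shared motif is not an independent event in each.

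The antitrypsin genes Serpina1a to Serpina1e lie in the same region of chromosome 12. They encode alpha1-antitrypsin, the liver-derived plasma inhibitor of neutrophil elastase, and the number of copies differs among mouse strains. Serpina1b was the most abundant, at 18.8, 7.35 and 15.9 FPKM across the glands and 5.33, 6.67 and 0.873 FPKM in the tumours. Although each tumour lay below each gland, Serpina1b did not pass (-1.65, SE 0.58, adjusted p = 0.0541 in limma). The call was gained without gland 2 (adjusted p = 0.044 in limma) or tumour 2 (adjusted p = 0.0471 in limma) and with a common sum per library (adjusted p = 0.0407 in limma), and the log2 fold change was -1.01 without tumour 3.

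Serpina1d fell from 3.43, 1.60 and 3.01 FPKM to 0.683, 0.365 and 0 FPKM (-1.44, adjusted p = 0.00714 in limma). Serpina1e stood at 4.42, 1.53 and 2.70 FPKM across the glands and, in the tumours, was listed at 0 throughout (adjusted p = 0.00231 in limma). Serpina1a stood at 0.0862, 1.67 and 3.72 FPKM and 1.01, 0.668 and 0 FPKM, overlapped between the groups and did not pass (-0.68, adjusted p = 0.352 in limma). The copies are hard to tell apart: 67.43% of the 50-base stretches of the Serpina1a transcript were found in other genes, 50.93% for Serpina1d, 35.79% for Serpina1b and 35.58% for Serpina1e, so the division between them is uncertain. The 8 hepatocyte markers summed to 3.88 to 8.20 FPKM across the glands and 1.84 to 12.4 FPKM in the tumours, and of the 2 tested albumin fell and Fgb did not pass. Albumin (Alb) stood at 6.81, 2.78 and 7.36 FPKM in the glands and was listed at 0 in all 3 tumours. Fgb, a fibrinogen chain gene, stood at 0, 0.772 and 0.159 FPKM across glands 1 to 3 and 1.57, 0.801 and 10.6 FPKM across tumours 1 to 3. Apoa2 and Ahsg had higher means in the tumours, at 0.227 against 0.817 FPKM for Apoa2 and 0 against 0.486 FPKM for Ahsg. Apob and Tat were above 0 in tumour 3 alone. Apoa1 was at or under 0.329 FPKM in every library and Ttr was listed at 0 throughout. These markers were named after their values were seen, and their part in the Serpina1 results was not tested. Alb was lowest in gland 2 among the glands, as were Serpina1b, Serpina1d and Serpina1e.

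The remaining plasma serpins were near or at 0. Serpina10, which blocks factor Xa together with protein Z, stood at 1.33, 0 and 1.41 FPKM in the glands and reached 0.278 FPKM in tumour 2 alone of the tumours. Antithrombin (Serpinc1) stayed at or under 0.467 FPKM and heparin cofactor II (Serpind1) at or under 0.516 FPKM. The hormone carriers Serpina6 and Serpina7 and the protein C inhibitor gene Serpina5 were listed at 0 in all 6 libraries, and vaspin (Serpina12), an adipose serpin, reached 0.134 FPKM in gland 1 only. Thrombin (F2) and plasma kallikrein (Klkb1) were likewise listed at 0 in every library. Tissue factor (F3), the cell surface trigger of clotting, rose from 14.9, 14.9 and 16.8 FPKM to 24.2, 26.3 and 45.8 FPKM (log2 fold change 0.95, adjusted p = 0.0157 in limma). Of 5 tested coagulation genes 2 rose and 3 fell.

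Of the 6 tested serpins of clade B, 3 fell (Serpinb1a, Serpinb6b and Serpinb9), Serpinb5 rose and 2 did not pass. Clade B serpins mostly act inside cells and lack a secretion signal of the usual kind, and those that fell lie on chromosome 13. Serpinb1a (32842092 to 32851185), an inhibitor of neutrophil elastase, cathepsin G and proteinase 3, stood at 10.05, 7.96 and 10.5 FPKM across the glands and 2.92, 3.01 and 0.693 FPKM in the tumours (log2 fold change -1.81, SE 0.34, adjusted p = 0.0055 in limma). Serpinb9 (33003250 to 33017957), the inhibitor of granzyme B in cytotoxic lymphocytes and their neighbours, stood at 16.8, 15.1 and 18.8 FPKM against 9.95, 7.01 and 4.33 FPKM (-1.20, SE 0.26, adjusted p = 0.00905 in limma). Serpinb6b stood at 11.4, 7.60 and 12.3 FPKM against 4.22, 3.83 and 2.23 FPKM (-1.37, SE 0.25, adjusted p = 0.00426 in limma). In all 3 genes each tumour lay below each gland, and tumour 3 was the lowest.

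Serpinb6a, a paralogue of Serpinb6b and a broadly expressed inhibitor of cathepsin G, differed from the 3 others of that chromosome. It stood at 79.9, 128 and 96.7 FPKM across the glands and 106, 73.2 and 73.3 FPKM in the tumours, overlapped between the groups and did not pass (-0.26, SE 0.22, adjusted p = 0.359 in limma). It was the most abundant serpin transcript in tumour 1. Its exons overlap Nqo2, Ripk1 and 1110046J04Rik on the other strand, at 5.12 to 9.01, 10.9 to 12.5 and 0 to 2.70 FPKM, all well under Serpinb6a. Whether counting used strand is not given in those sources that were read. Serpinb1b, Serpinb6d, Serpinb6e and Serpinb9d to Serpinb9g, on the same chromosome, were listed at 0 in all libraries.

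The proteases these serpins act on did not move as one. Prtn3, which encodes proteinase 3, stood at 1.32, 1.48 and 3.39 FPKM across the glands and 88.9, 67.3 and 66.0 FPKM in the tumours (log2 fold change 4.66, SE 0.26, adjusted p = 4.9e-05 in limma). The neutrophil elastase gene Elane, its neighbour on chromosome 10, stayed between 0.137 and 0.769 FPKM in all 6 libraries. Ctsg was at 0.469 FPKM in tumour 1 and listed at 0 elsewhere, and myeloperoxidase (Mpo), named after its values were seen, stayed at or under 0.320 FPKM. Prtn3 shares exon bases with Plppr3 on the other strand, which was not analysed here, and reads of the pair cannot be told apart unless they were counted by strand. The ratio of Serpinb1a to Prtn3 was 7.61, 5.37 and 3.09 in the glands and 0.0329, 0.0447 and 0.0105 across the tumours. Neutrophil markers summed to between 25.2 and 46.7 FPKM across the glands and to 3204, 1906 and 270 FPKM across the tumours. S100a8, the 1 of 6 tested that passed, made up most of the tumour sums, at 3100, 1833 and 259 FPKM. The other tested genes went in both directions without passing. Their log2 fold changes were -0.53 for Csf3r, -0.50 for Cxcr2, 1.37 for S100a9, 2.71 for Camp and 0.98 for Ngp. The tumour sums therefore describe S100a8 more than the list.

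Both granzyme genes that entered the fit, Gzma and Gzmb, fell, and the others of the list were under the filter. Gzmb, the target of Serpinb9, stood at 4.74, 3.18 and 5.31 FPKM across the glands and 1.25, 2.17 and 1.38 FPKM in the tumours (log2 fold change -1.05, adjusted p = 0.00848 in limma). Gzma stood at 9.75, 8.20 and 10.9 FPKM against 2.11, 0.594 and 0 FPKM (-2.63, adjusted p = 0.00196 in limma). The ratio of Serpinb9 to Gzmb overlapped between the groups, at 3.54, 4.74 and 3.54 in the glands and 7.96, 3.23 and 3.14 across the tumours. Of 7 tested leukocyte serine proteases 6 fell, 4 of them mast cell proteases, and Prtn3 was the 1 that rose. Mast cell markers summed to 148 to 185 FPKM across the glands and 29.6 to 32.4 FPKM in the tumours. That list shares Cma1, Mcpt4 and Tpsb2 with the proteases just counted, so it is not a separate observation. Of its 6 tested genes 4 fell and 2 did not pass. Kit made up most of the tumour sums and did not pass, at means of 28.6 and 24.1 FPKM (adjusted p = 0.243 in limma). The log2 fold changes of Cpa3, Cma1, Tpsb2 and Mcpt4 were -3.71, -4.11, -3.52 and -4.41.

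Of 8 tested cysteine cathepsins, the second class of serpin targets, 1 rose, 2 fell and 5 did not pass, among them cathepsin L (Ctsl), at 153 ± 4.51 FPKM across the glands and 150 ± 18.9 across the tumours (mean ± SD, n = 3 each), and cathepsin S (Ctss). Of 13 membrane serine proteases and kallikreins 9 rose, 1 fell and 3 did not pass, such as matriptase (St14), from 37.0 ± 1.94 to 93.7 ± 5.03 FPKM (log2 fold change 1.32, SE 0.10). Among 19 inhibitors that are not serpins 9 rose, 8 fell and 2 did not pass. Spint1, the Kunitz inhibitor of matriptase, rose from 18.6 ± 1.76 to 48.5 ± 9.34 FPKM (1.32, SE 0.16), and A2m, the alpha2-macroglobulin trap of proteases, was listed at 0 in the glands and stood at 1.33, 2.97 and 10.3 FPKM in the tumours. Slpi, the secretory leukocyte protease inhibitor, stood at 74.7, 64.9 and 62.8 FPKM across the glands and 132, 107 and 52.8 FPKM in the tumours and passed only when tumour 3 was left out (adjusted p = 0.00338, against 0.311 with it, in limma).

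The libraries within a group were ordered alike for most of the genes that fell. Tumour 3 held the lowest tumour value in 12 of the 13, Serpina1e being at 0 in all tumours, and gland 2 the lowest gland value in 12 of the 13, with Serpinf1 as the exception. Among the genes that rose, tumour 3 was lowest for Serpinb5 and Serpini1 and highest for Serpine2. Macrophage markers summed to 606, 493 and 276 FPKM across tumours 1 to 3, and B cell and plasma cell markers to 62.0, 47.0 and 3.58 FPKM. The groups did not overlap for the 13 genes that fell, nor for Serpinb5 and Serpine2. Leaving out tumour 3 or gland 2 therefore could not turn the direction of these changes. Tumours 1 and 2 were close to each other, with r = 0.982 between their log2 values across the tested genes, which are not independent replicates, against 0.944 and 0.961 with tumour 3.

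**Figure D4:**
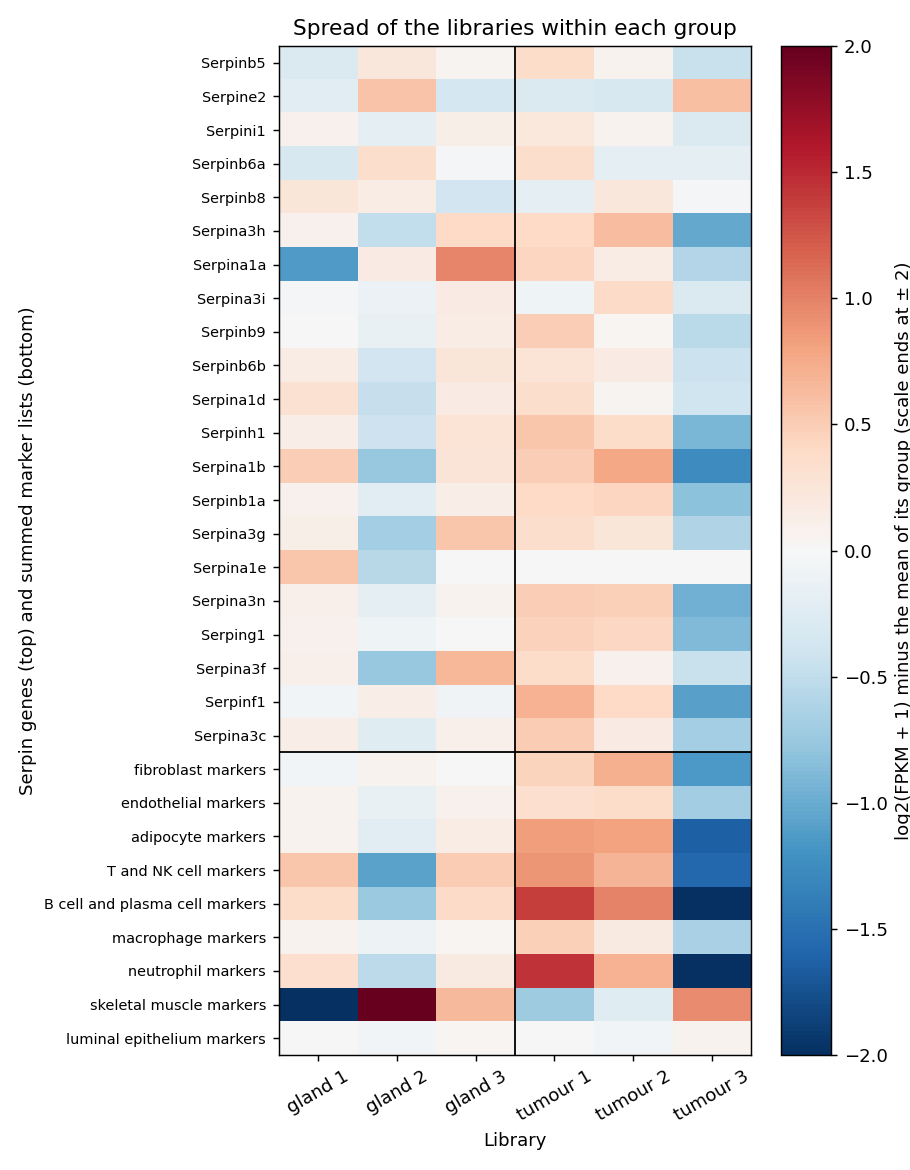
Deviation of each library from its group mean in log2(FPKM + 1), for 21 serpin genes of the fit (top) and the summed FPKM of 9 marker lists (bottom), with colours ending at ± 2. Blue cells in the tumour 3 column mark its low values for most serpins and for the fibroblast, endothelial, adipocyte, lymphocyte, macrophage and neutrophil lists, and Serpine2 is red there at 0.60.

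Without glands 1 and 3, which both held more lymphocyte marker RNA than gland 2, 1 gland was left, that with the most muscle RNA, and it is assumed to vary like the tumours. In that fit 19 serpin genes were tested, and Serpinb5, Serpina3c and Serpina3f kept their calls. The other called genes that were tested lost theirs, among them Serpine2 and Serping1. Their direction could not change, as their groups did not overlap. The log2 fold change of Serpine2 was 1.75 in that fit (adjusted p = 0.084 in limma), against 2.32 with all libraries. The log2 fold change of Serping1 was -2.54 (adjusted p = 0.0823 in limma), against -2.62.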

How the data were processed

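The deposited table holds 1 FPKM value per gene symbol and library, computed by the authors with HISAT2, StringTie and the mm10 build, per the submitters' processing notes, which give no versions. The unit is inferred: values are not whole, never negative and sum differently per library. Whole reads could not be recovered, so no count model was run. The values were taken as log2(FPKM + 1), genes averaging 1 FPKM or more across the 6 libraries were kept, and limma 3.58.1 in R 4.3.3 (trended prior, 2-sided, Benjamini-Hochberg over 13364 genes, threshold 0.05) compared 3 tumours with 3 glands. Fold changes on this scale understate those of low genes. The fit was tested on simulated data. Positions and shared 50-base stretches come from GENCODE M21 (C57BL/6J genome, while the mice were FVB/NJ), and promoters from RefSeq. Every member in the fit is named, except 1 that is counted but not reported here, with target genes from fixed pathway lists. Other members and marker genes were named after their values were seen. The family, the lists and the ratios were picked with earlier results of these data known, though the rule for members reads symbols alone. Alternatives changed the pseudocount, filter, scaling, block, minimum fold and libraries. Protein sequences were not used here.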

Additional observations from a re-analysis of the deposited data

How the results depend on the processing

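Counts of serpin genes higher and lower in the tumours, 4 and 13, were 3 to 5 and 10 to 15 under every alternative except 1, and without 1 library at a time they were 3 to 4 and 10 to 15. The exception left out glands 1 and 3 together, where 1 was higher and 2 lower among 19 tested; that fit rests on 1 gland. With the replicate number as a block, 3 were higher and 12 lower. The log2 fold change of Serpini1 (adjusted p = 0.0979 in limma) and the log2 fold change of Serpina3i (adjusted p = 0.0795 in limma) did not pass there. Libraries of the same number did not deviate together (r = -0.054, -0.118 and -0.124 for numbers 1, 2 and 3). The labels give no pairing, and deviations from means of 3 libraries cannot show whether the numbers pair them. Without a filter 5 were higher and 15 lower. Quantile normalization moved the median log2 fold change of all genes from 0.008 to 0.119. The sign turned for Serpina3h without tumour 3 (0.13) and without glands 1 and 3 (0.11), for Serpinb8 under quantile normalization (0.12), for Ctsl without tumour 3 (0.066), and for Ctss without gland 1 (0.01), gland 3 (0.03), tumour 3 (0.25) or glands 1 and 3 (0.26). Without 1 library at a time, the log2 fold change of Serpina3h ran from -0.69 to 0.13, that of Ctsl from -0.12 to 0.066 and that of Ctss from -0.28 to 0.25. None of these passed in any of those fits, and the cause was not tested. Read depth is unknown, which limits what a listed 0 or a value under 1 FPKM can show.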
